A study of Homo sapiens with 6 samples.

Results

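The genes described here are 48 human genes of type I interferon action and of the sensing of foreign or misplaced nucleic acids. They were listed by name, matched to the identifiers of the deposited count table through their current symbols, and sorted by role into 6 sensors, 12 signalling genes and 30 effectors. All 48 had 1 matching row among the 58721 rows of the table. The cells were A549, a human line established from a lung adenocarcinoma. Their labels give overexpression of KAT8 in all 6 libraries, of the wild-type form in 3 (WT) and of a form with the R98W substitution in 3 (R98W). KAT8, or MOF, is a lysine acetyltransferase that acetylates histone H4, and the series concerns its Tudor-knot domain. Both groups are thus labelled as overexpressing KAT8, which 1 WT library did not show, and no library labelled as a control without overexpression was used here. The vector, the promoter that drove it, whether the cells were clones, and whether replicates were separate cultures were not stated in the labels, so p-values measure only how far these libraries spread, and that spread may be technical. No interferon or nucleic acid treatment is named in the labels.

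Cells detect viral RNA in the cytoplasm with the RIG-I-like receptors RIGI and IFIH1, which signal through MAVS, and in endosomes with TLR3. DNA in the cytoplasm is detected by CGAS, which signals through STING1. Both routes activate IRF3 and lead to secretion of interferon, which binds the receptor IFNAR1 with IFNAR2, activates the kinases JAK1 and TYK2 and assembles a complex that holds STAT2 and IRF9. That complex binds interferon-stimulated response elements and raises many antiviral genes, which most epithelial cells also express at a low level without interferon.

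The libraries held from 90007121 to 110152936 counts. The overexpressed gene KAT8 stood at 12.2, 195 and 184 CPM (read counts relative to the scaled library total) in WT replicates 1 to 3 and at 166, 196 and 236 CPM in R98W replicates 1 to 3, so the library labelled WT replicate 1 stood far below the other 5, against its label. Its log2 fold change of 0.61 (SE 0.48) did not pass the edgeR test across all genes (adjusted p = 0.362). Leaving that library out gave the same 22 lower and the same 6 higher genes among the 48 that are described below. WT replicate 1 also stood slightly nearer to R98W in log2 CPM over all tested genes. Its correlations with the R98W libraries were 0.984 to 0.985, against 0.980 to 0.982 for WT replicates 2 and 3. With those 2 WT libraries it correlated at 0.990 and 0.991. Of the 5 lung epithelial markers, the keratins KRT8, KRT18 and KRT7 were abundant, up to 4515 CPM, and did not pass the test. KRT19 was higher in R98W (log2 fold change 0.48, SE 0.07, edgeR adjusted p = 3.53e-05), and EPCAM was low, from 3.30 to 8.29 CPM, and lower in R98W (log2 fold change -0.86, SE 0.15, edgeR adjusted p = 0.000151). Of the 6 leukocyte markers checked, CD14 and ITGAM passed 1 CPM, and CD3E had 0 counts. Of the 6 fibroblast markers 5 stayed under 1 CPM, with COL1A1 as the exception, and all 4 endothelial markers stayed under it. Summed leukocyte markers ran from 10.3 to 10.9 CPM in WT and 9.16 to 10.8 CPM in R98W, fibroblast markers from 10.5 to 14.6 and 11.8 to 13.2 CPM, and endothelial markers from 0.392 to 0.779 and 0.214 to 0.362 CPM. The endothelial sums did not overlap between the groups, and the part of these markers in the results was not tested.

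Response elements were searched in RefSeq promoter windows (build GRCh38.p14), which run from 250 bases before to 50 bases after a start of transcription. The motif was GAAANNGAAA, the core of the interferon-stimulated response element, on either strand, where its reverse complement reads TTTCNNTTTC. Matches may overlap each other, and no other motif was searched. Windows were given for 34 of the 48 genes. At least 1 window held the motif in 18 of these 34, or 52.9%, against 4.38% of all 27305 genes with a window, and in none of the 6 signalling genes with a window. The 170 bases before the start are shown, 5′ to 3′, for 7 genes picked from the 18 with the motif, with matches in capitals. They do not stand for the strongest falls. SAMD9 holds a match too, but UBE2L6, SP110, HERC6 and SAMD9L fell with windows that lack it, and IFITM2 had no window. IFIH1 is a sensor. IFI6, IFITM3, OAS3 and HERC5 are effectors that were lower in R98W. DDX60 and DDX60L are neighbouring paralogs that moved in opposite directions. A match is a description of letters and does not show binding.
IFIH1 (chr2:162318685-162318854, minus strand): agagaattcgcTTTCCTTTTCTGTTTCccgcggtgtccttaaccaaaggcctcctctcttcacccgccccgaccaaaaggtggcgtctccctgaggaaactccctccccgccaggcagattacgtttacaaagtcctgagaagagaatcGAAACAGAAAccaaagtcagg
IFI6 (chr1:27672193-27672362, minus strand): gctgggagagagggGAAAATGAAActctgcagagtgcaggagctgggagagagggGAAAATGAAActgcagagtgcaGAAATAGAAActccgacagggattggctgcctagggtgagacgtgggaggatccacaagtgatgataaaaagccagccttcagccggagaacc
IFITM3 (chr11:320861-321030, minus strand): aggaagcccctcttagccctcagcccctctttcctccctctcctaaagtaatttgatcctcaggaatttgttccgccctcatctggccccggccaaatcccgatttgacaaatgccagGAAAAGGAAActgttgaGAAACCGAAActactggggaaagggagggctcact
OAS3 (chr12:112938304-112938473, plus strand): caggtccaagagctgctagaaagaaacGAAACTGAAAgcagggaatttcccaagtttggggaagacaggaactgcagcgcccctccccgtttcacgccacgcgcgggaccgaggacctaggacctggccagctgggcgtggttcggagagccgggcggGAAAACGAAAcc
HERC5 (chr4:88456949-88457118, plus strand): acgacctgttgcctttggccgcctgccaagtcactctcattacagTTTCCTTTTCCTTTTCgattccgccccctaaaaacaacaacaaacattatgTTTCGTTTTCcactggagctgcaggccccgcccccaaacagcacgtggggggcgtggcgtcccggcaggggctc
DDX60 (chr4:168318753-168318922, minus strand): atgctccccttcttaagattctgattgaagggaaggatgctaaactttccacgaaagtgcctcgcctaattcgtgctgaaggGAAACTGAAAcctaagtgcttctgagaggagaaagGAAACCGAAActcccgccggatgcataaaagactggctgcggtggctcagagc
DDX60L (chr4:168480493-168480662, minus strand): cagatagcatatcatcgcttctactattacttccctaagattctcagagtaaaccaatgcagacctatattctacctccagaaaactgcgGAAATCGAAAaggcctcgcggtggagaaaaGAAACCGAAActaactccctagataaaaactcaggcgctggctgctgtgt
IFIH1, IFI6 and HERC5 each show 3 matches, of which 2 overlap in IFIH1 and in HERC5, and the other 4 genes show 2 each. The DDX60L stretch lies inside the longer DDX60L gene model of GENCODE 29.

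**Figure D1:**
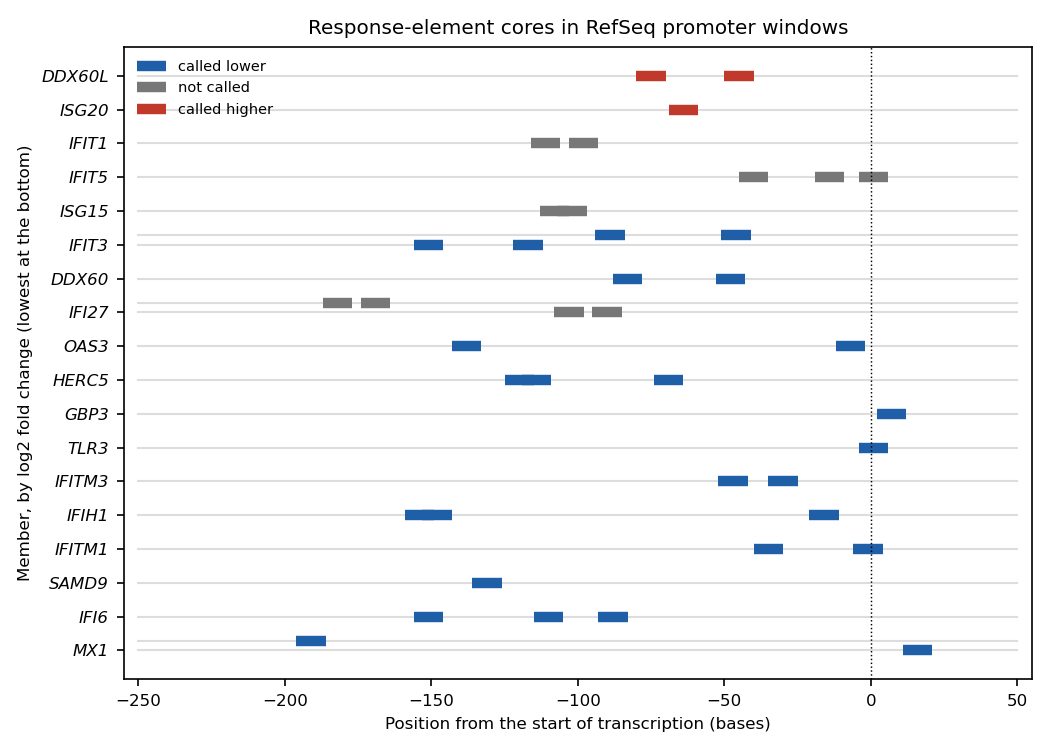
Positions of the response-element core (coloured bars, 10 bases each) in the RefSeq promoter windows of the 18 genes that hold it, in bases from the start of transcription (dotted line). A second grey line stands where a gene has another window that holds it, and windows without a match are not drawn. Genes are ordered by log2 fold change, and colour gives the edgeR call in R98W against WT. Blue bars mark the 12 genes called lower, and the red bars of the 2 called higher, ISG20 and DDX60L, are at the top.

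Of the 48 genes, 22 were lower and 6 were higher in R98W, 19 did not pass the test and 1 was too low to test. A gene is called higher or lower where the edgeR quasi-likelihood test, adjusted over all 20713 genes tested, gave a value under 0.05. Over all tested genes 34.8% were called, 18.5% as lower and 16.2% as higher. Among the 47 interferon genes tested, 46.8% were lower and 12.8% higher. Of the 47, 13 were called lower with an estimated fall of at least 2-fold, against 4.85% of all tested genes. The 2-fold size itself was not tested. The median log2 fold change, R98W over WT, was -0.29 for the interferon genes and -0.00465 for all tested genes. Without R98W replicate 2 the median of the interferon genes was -0.19, and over the 17 alternatives it ran from -0.31 to -0.19. WT and R98W libraries were fully separated in 31 of the 47, and in 45.6% of all tested genes. In bulk RNA, fewer cells expressing a gene and less RNA per cell cannot be told apart.

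These shares differed with the level of the genes. Calls among weakly expressed genes were mostly falls across the whole table and calls among strongly expressed genes mostly rises. Among interferon genes under 1 CPM, 4 of 7 were lower and 0 higher, against 10.7% lower and 2.44% higher among all tested genes at that level. Between 1 and 10 CPM 10 of 17 were lower and 1 higher, against 28.8% and 10.4% of all tested genes. Above 10 CPM 8 of 23 were lower and 5 higher, where all tested genes were lower in 18.7% and higher in 28.6%. Signalling genes, most of them in the last range, had 3 lower and 0 higher of 12, while effectors had 16 lower and 4 higher of 30 and sensors 3 lower and 2 higher of 5 tested.

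**Figure D2:**
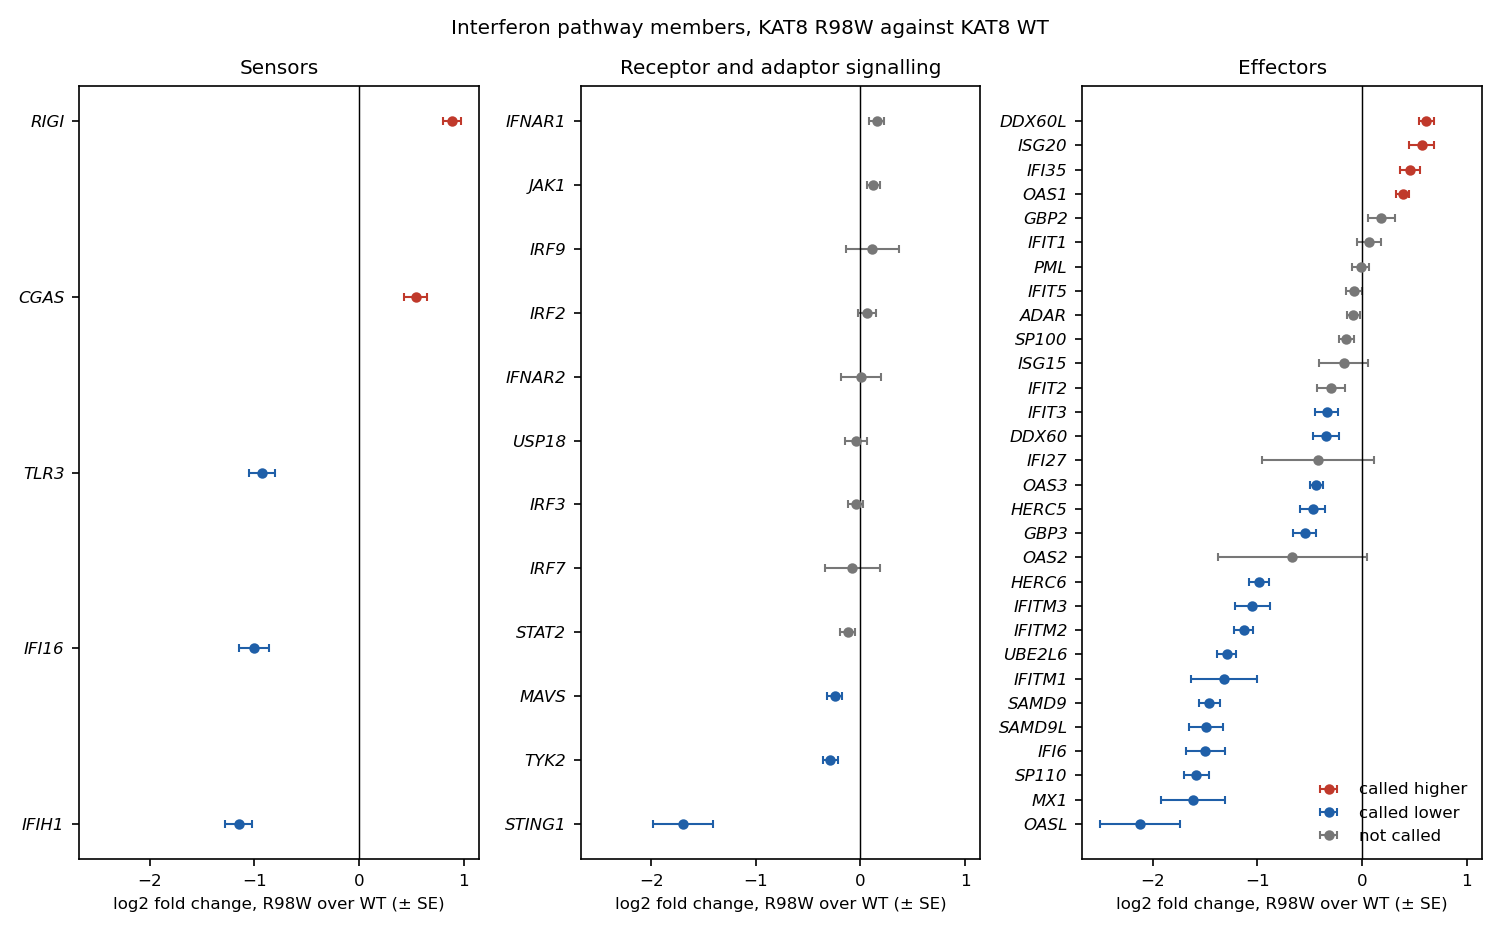
Log2 fold change of R98W over WT with its SE for the 47 tested genes, in 3 panels by role. Red points are called higher, blue points called lower and grey points not called by edgeR. The 5 sensors split into 2 rises and 3 falls, 9 of 12 signalling genes are grey, and effectors run from OASL at -2.12 to DDX60L at 0.61. Across all tested genes 34.8% were called.

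The sensors moved in opposite directions. RIGI, the RIG-I helicase that binds RNA with a 5′ triphosphate (ENSG00000107201, chromosome 9, 32455705 to 32526324, hg38), stood at 22.9, 20.2 and 18.5 CPM in the WT libraries and at 36.0, 40.9 and 37.0 CPM in the R98W libraries. Every R98W library lay above every WT library. RIGI rose by 0.89 on the log2 scale (SE 0.09, edgeR adjusted p = 3.22e-07). IFIH1, the MDA5 helicase that binds long RNA duplexes (ENSG00000115267, chromosome 2, 162267079 to 162318703), stood at 5.36, 5.51 and 5.63 CPM in WT and at 2.35, 2.58 and 2.51 CPM in R98W. The spread within each group was small beside the gap between them, and the mean in R98W was 45.1% of that in WT (log2 fold change -1.15, SE 0.13, edgeR adjusted p = 1.98e-06). The ratios of gene pairs given here and below describe pairs chosen after their values were seen. Per kilobase of exon, RIGI was 5.01, 4.30 and 3.85 times as abundant as IFIH1 in the WT libraries and 17.9, 18.6 and 17.3 times in the R98W libraries.

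TLR3, the endosomal receptor for RNA duplexes, was at 8.28, 6.65 and 8.02 CPM in WT and at 3.89, 3.82 and 4.37 CPM in R98W, without overlap (log2 fold change -0.92, SE 0.13, edgeR adjusted p = 1.35e-05). DHX58, or LGP2, a helicase that modulates the other RIG-I-like receptors, had 4, 23 and 4 counts in WT and 7, 8 and 8 in R98W and was not tested. Its counts did not pass the filter, so the main test gives no result for it in either direction.

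The DNA sensors also parted. CGAS, the synthase that makes cyclic GMP-AMP on DNA, rose from 10.5, 7.82 and 8.67 CPM to 11.9, 13.7 and 13.7 CPM (log2 fold change 0.54, SE 0.11, edgeR adjusted p = 0.000866). IFI16, a nuclear DNA-binding protein, fell from 4.18, 4.04 and 4.77 CPM to 2.23, 2.08 and 2.16 CPM (log2 fold change -1.01, SE 0.14, edgeR adjusted p = 2.30e-05). Neither gene had overlapping groups. All 5 sensor calls held in each of the 17 alternative analyses. Summed over the 6 sensors the level was 44.4 to 51.2 CPM in WT and 56.4 to 63.1 CPM in R98W, a sum to which RIGI gives the largest part.

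Of the 12 signalling genes, 3 fell, 0 rose and 9 did not pass the test. That is 25% lower and 0% higher, beside 18.5% and 16.2% of all tested genes. STING1, the adaptor that binds the product of CGAS (ENSG00000184584, chromosome 5, 139475534 to 139482935), stood at 1.12, 0.948 and 1.29 CPM in WT and at 0.356, 0.248 and 0.426 CPM in R98W. All R98W libraries were below all WT libraries, at a mean of 30.7% of the WT level (log2 fold change -1.69, SE 0.29, edgeR adjusted p = 0.000132). The sensor CGAS and its adaptor moved apart. Per kilobase of exon CGAS was 8.62, 7.64 and 6.25 times as abundant as STING1 in WT and 30.9, 51.0 and 29.8 times in R98W. MAVS, the mitochondrial adaptor of RIGI and IFIH1, was far more abundant, at 306, 271 and 258 CPM in WT and 230.9, 248.9 and 223.7 CPM in R98W (log2 fold change -0.25, SE 0.07, edgeR adjusted p = 0.0116). The MAVS call was lost without R98W replicate 3 (edgeR adjusted p = 0.0588) and after a correction for GC content (0.0625). The kinase TYK2 stood at 41.7, 41.2 and 38.0 CPM in WT and 33.0, 32.2 and 33.8 CPM in R98W (log2 fold change -0.29, SE 0.07, edgeR adjusted p = 0.00365).

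The receptor, its other kinase and the transcription factors did not pass the test. JAK1, the kinase bound to IFNAR2, had the highest level per kilobase of exon of all 48 genes, 53.1 CPM per kb in WT and 57.9 in R98W, at a log2 difference of 0.12 (SE 0.07, edgeR adjusted p = 0.155). IFNAR1 was at 76.5 ± 4.0 CPM in WT and 85.1 ± 7.1 CPM in R98W (SD, n = 3, edgeR adjusted p = 0.11), and its call appeared without R98W replicate 3 (log2 fold change 0.22, edgeR adjusted p = 0.0293). IFNAR2, the other receptor chain, stood at 1.43 ± 0.11 and 1.44 ± 0.12 CPM. IRF3, the factor activated by the sensors, was at 50.1 ± 3.0 CPM in WT and 48.5 ± 3.5 CPM in R98W. Log2 fold changes were 0.06 (SE 0.09) for IRF2, a repressor at the same elements that stood at 19.3 ± 1.3 and 20.2 ± 1.3 CPM, -0.12 (SE 0.07) for STAT2, 0.11 (SE 0.25) for IRF9 and -0.08 (SE 0.26) for IRF7, the factor that amplifies interferon production. USP18, which removes ISG15 from proteins and blocks the receptor, had a log2 fold change of -0.04 (SE 0.11). IRF9, IRF7 and IFNAR2 lay near 1 CPM, with SEs of 0.25, 0.26 and 0.19 on the log2 scale.

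**Figure D3:**
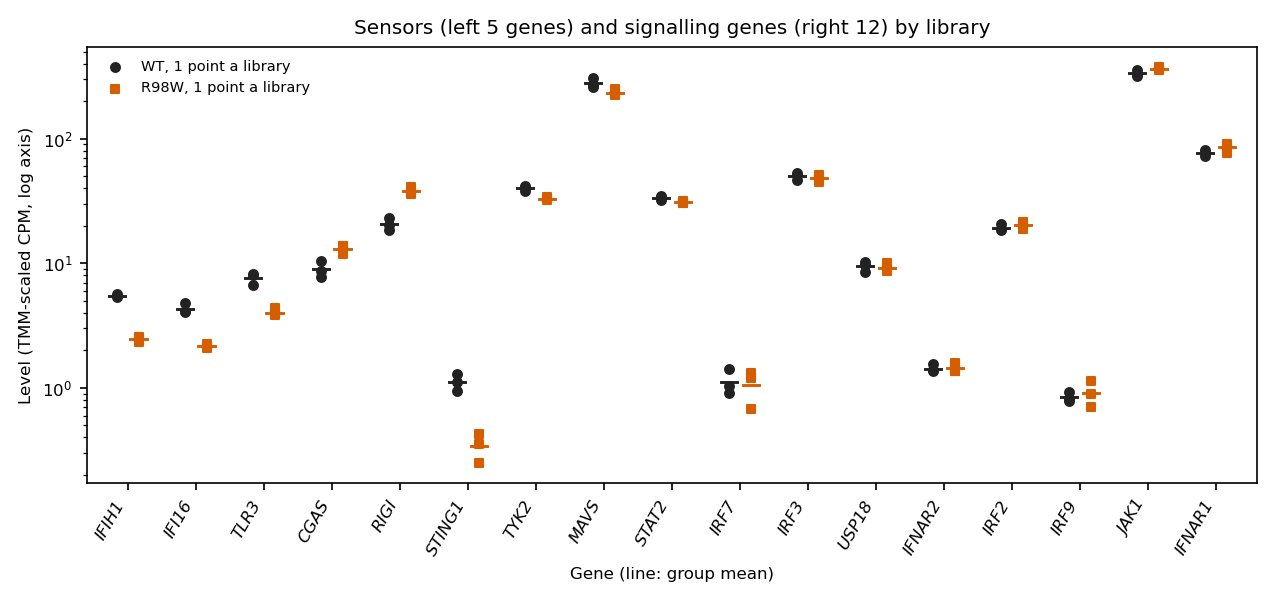
Level of each sensor (left 5 genes) and signalling gene (right 12) in every library, in TMM-scaled CPM on a log axis, with black circles for WT, orange squares for R98W and a line at each group mean. The groups are apart for all 5 sensors and for STING1, TYK2, MAVS and STAT2, and overlap for the other 8 signalling genes. Across all tested genes the groups were apart in 45.6%.

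Of the 30 effectors 16 fell, 4 rose and 10 did not pass, and the 6 smallest p-values belonged to falls. That is 53.3% lower and 13.3% higher, beside 18.5% and 16.2% of all tested genes. SAMD9, a cytoplasmic antiviral and growth-restraining protein (ENSG00000205413, chromosome 7, 93099513 to 93118023), stood at 23.1, 20.8 and 22.1 CPM in WT and at 8.84, 8.10 and 7.11 CPM in R98W (log2 fold change -1.46, SE 0.10, edgeR adjusted p = 4.26e-09). Its neighbour and paralog SAMD9L (chromosome 7, 93130055 to 93148369) stood at 5.80, 5.14 and 6.28 CPM in WT and at 1.84, 2.57 and 1.71 CPM in R98W (log2 fold change -1.49, SE 0.16, edgeR adjusted p = 9.76e-07). Per kilobase of exon SAMD9 was 3.67 to 4.22 times as abundant as SAMD9L in WT and 3.28 to 4.99 times in R98W, and these ranges overlap.

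SP110, a PML nuclear body protein (ENSG00000135899, chromosome 2, 230167293 to 230225729), stood at 11.97, 13.3 and 13.6 CPM in WT and at 4.81, 4.53 and 3.65 CPM in R98W (log2 fold change -1.58, SE 0.12, edgeR adjusted p = 1.39e-08). The other genes listed here for these bodies, SP100 and PML, did not pass the test. SP100, on the same chromosome, had a log2 difference of -0.15 (SE 0.07, edgeR adjusted p = 0.0997), and PML, which organises the bodies, had -0.01 (SE 0.08, edgeR adjusted p = 0.927). SP100 passed after the corrections for expression level (edgeR adjusted p = 0.0479) and GC content (0.0323).

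ISG15 is a ubiquitin-like protein that interferon-induced enzymes attach to other proteins. The 3 genes listed with it under conjugation fell, while ISG15 itself did not pass the test. The conjugating enzyme UBE2L6 (ENSG00000156587, chromosome 11, 57551656 to 57568284) stood at 25.2, 31.5 and 28.9 CPM in WT and at 11.01, 11.8 and 12.1 CPM in R98W (log2 fold change -1.29, SE 0.09, edgeR adjusted p = 8.34e-09). HERC6 (chromosome 4, 88378739 to 88443111), a HECT-type ligase, stood at 16.02, 15.9 and 18.4 CPM in WT and at 8.54, 8.76 and 8.11 CPM in R98W (log2 fold change -0.98, SE 0.10, edgeR adjusted p = 2.94e-07). HERC5 (chromosome 4, 88457117 to 88506163), next to HERC6 and the main human ISG15 ligase, had a log2 difference of -0.47 (SE 0.12, edgeR adjusted p = 0.00428). Per kilobase of exon HERC6 stood at 1.08 to 1.32 times HERC5 in the WT libraries and at 0.734 to 0.919 times in the R98W libraries. Which of the 2 stands higher depends on the merged exon lengths, whereas the shift between the groups does not. ISG15 was at 1.30 ± 0.11 CPM in WT and 1.15 ± 0.36 CPM in R98W (SD, n = 3, edgeR adjusted p = 0.602).

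All 3 IFITM genes, whose small membrane proteins block the fusion of enveloped viruses, fell. IFITM2 (ENSG00000185201, chromosome 11, 307631 to 315272) stood at 19.5, 20.0 and 20.4 CPM in WT and at 9.003, 9.95 and 8.43 CPM in R98W (log2 fold change -1.13, SE 0.09, edgeR adjusted p = 2.87e-08). IFITM3 had a log2 fold change of -1.05 (SE 0.17) and IFITM1 one of -1.32 (SE 0.31), the latter from 0.793 ± 0.160 CPM to 0.317 ± 0.078 CPM. These genes are neighbouring relatives, and the IFITM1 model lies inside the IFITM2 model on the same strand. How reads were divided among the 3 is uncertain.

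IFI6, a small protein that protects the endoplasmic reticulum against flaviviruses (ENSG00000126709, chromosome 1, 27666061 to 27672218), stood at 4.29, 4.02 and 5.17 CPM in WT and at 1.24, 1.405 and 2.11 CPM in R98W (log2 fold change -1.50, SE 0.18, edgeR adjusted p = 4.88e-06). The groups were well apart, with R98W replicate 3 the highest of its group. IFI35, a partner of NMI, rose instead, at a log2 difference of 0.46 (SE 0.10, edgeR adjusted p = 0.00119). IFI27 was under 0.3 CPM in every library and did not pass the test.

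The OAS family, which makes the second messenger 2-5A on RNA duplexes, split within 1 gene cluster. OAS1 (chromosome 12, 112906777 to 112933222) was at 51.2 ± 1.7 CPM in WT and 66.9 ± 2.3 CPM in R98W (SD, n = 3; log2 fold change 0.39, SE 0.07, edgeR adjusted p = 0.00014). OAS3 (chromosome 12, 112938352 to 112973249) was at 95.9 ± 2.5 and 70.8 ± 2.6 CPM (log2 fold change -0.44, SE 0.06, edgeR adjusted p = 3.39e-05). Per kilobase of exon OAS1 was 0.899, 0.895 and 0.877 times as abundant as OAS3 in WT and 1.60, 1.59 and 1.54 times in R98W. The shift between the groups does not depend on exon length. Which of the 2 genes stands higher does, and that length merges all annotated exons. OAS2, in the same cluster, stayed under 0.2 CPM and did not pass. OASL, a family member without synthase activity elsewhere on chromosome 12, fell furthest of the 47 genes, at -2.12 on the log2 scale (SE 0.38, edgeR adjusted p = 0.000234), from 0.802 ± 0.235 to 0.184 ± 0.088 CPM.

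DDX60 and DDX60L, neighbouring helicase genes on chromosome 4 that share the promoter motif shown above, also went opposite ways. DDX60L (ENSG00000181381, chromosome 4, 168356735 to 168537786) stood at 28.2, 25.7 and 25.7 CPM in WT and at 39.3, 42.5 and 40.0 CPM in R98W (log2 fold change 0.61, SE 0.07, edgeR adjusted p = 3.86e-06). It overlaps PALLD on the other strand, which was at a mean of 207 CPM with a log2 fold change of 0.21. DDX60 had log2 fold change -0.34 (SE 0.13, edgeR adjusted p = 0.0407), a call that was lost without WT replicate 3 (0.136), R98W replicate 2 (0.143) or R98W replicate 3 (0.165) and after the correction for expression level (0.187). DDX60L was 2.09 to 2.54 times as abundant as DDX60 per kilobase of exon in WT and 3.69 to 4.95 times in R98W.

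Of the 4 IFIT genes, whose proteins bind foreign RNA ends, 1 fell and 3 did not pass. IFIT3 had a log2 difference of -0.34 (SE 0.11, edgeR adjusted p = 0.0199), which did not hold without R98W replicate 1 (0.0685) or R98W replicate 3 (0.0604) or after the correction for expression level (0.119). IFIT2 had log2 fold change -0.30 (SE 0.13, edgeR adjusted p = 0.0856) and passed without R98W replicate 1 (0.0400). The log2 fold change of IFIT1 was 0.07 (SE 0.11), and IFIT5, at 29.1 ± 1.7 CPM in WT and 27.6 ± 0.7 CPM in R98W (SD, n = 3), had -0.08 (SE 0.08). IFIT1, IFIT2 and IFIT3 have models that overlap LIPA on the other strand, which was at a mean of 155 CPM.

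Of the remaining effectors MX1 and GBP3 fell and ISG20 rose. MX1, the dynamin-like GTPase that traps viral nucleocapsids, was at 0.935 ± 0.216 CPM in WT and 0.304 ± 0.062 CPM in R98W (SD, n = 3, log2 fold change -1.62, SE 0.30, edgeR adjusted p = 0.000373). GBP3, a guanylate-binding GTPase, had log2 fold change -0.55 (SE 0.11, edgeR adjusted p = 0.000747), and its paralog GBP2 had 0.19 on the same scale (SE 0.13, edgeR adjusted p = 0.287). ISG20, an exonuclease of RNA, rose by 0.57 on the log2 scale (SE 0.12, edgeR adjusted p = 0.000859). ADAR, which edits adenosine to inosine in RNA duplexes and restrains IFIH1, was the most abundant effector per kilobase of exon, at 41.9 CPM per kb in WT and 39.5 in R98W. It differed by -0.08 on the log2 scale (SE 0.06, edgeR adjusted p = 0.342), or -0.27 when corrected for expression level (edgeR adjusted p = 0.00144). Summed over the 30 effectors the level was 856 to 878 CPM in WT and 757 to 793 CPM in R98W, and ADAR makes up a large part of it.

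**Figure D4:**
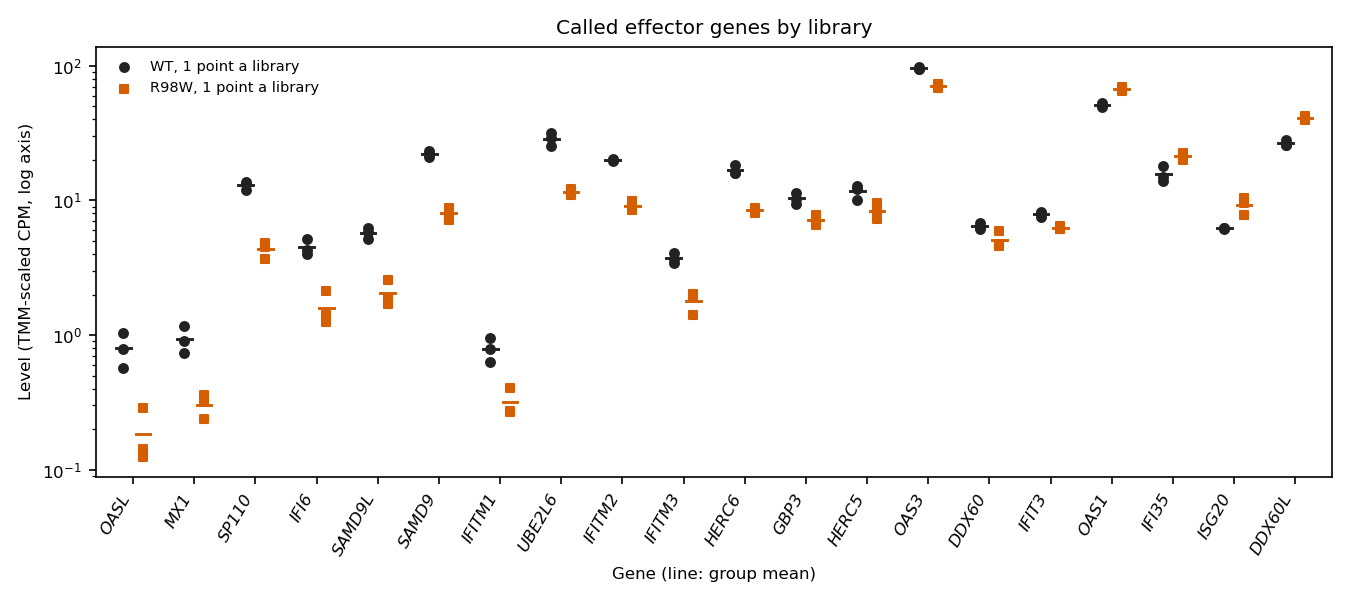
Level of the 20 called effector genes in every library, in TMM-scaled CPM on a log axis, ordered by log2 fold change, with black circles for WT, orange squares for R98W and a line at each group mean. The groups do not overlap for any of the 20 genes, which were drawn because they were called on these same libraries. Over all tested genes, called or not, the groups were apart in 45.6%. The 16 on the left are lower in R98W and OAS1, IFI35, ISG20 and DDX60L on the right are higher.

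Genes with and without the promoter motif both went down and up. Of the 18 interferon genes with the motif in a window, 12 were lower and 2 higher, and of the 16 with windows but without it 7 were lower and 3 higher. The latter include all 6 signalling genes with a window, so the 2 sets differ in role. Among effectors alone, 10 of 16 with the motif were lower and 2 higher, and 4 of 8 without it were lower and 2 higher. Their median log2 fold changes were -0.43 with the motif and -0.57 without it. Of the 13 tested genes without a window, 3 were lower and 1 higher. DDX60L and ISG20 rose with the motif, whereas HERC6, SAMD9L, SP110, UBE2L6 and IFI16 fell without a match in their windows. Among tested genes outside the list, 473 had the motif in a window, of which 20.7% were lower and 17.97% higher. Of the 12175 without it, 22.5% were lower and 19.2% higher.

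**Figure D5:**
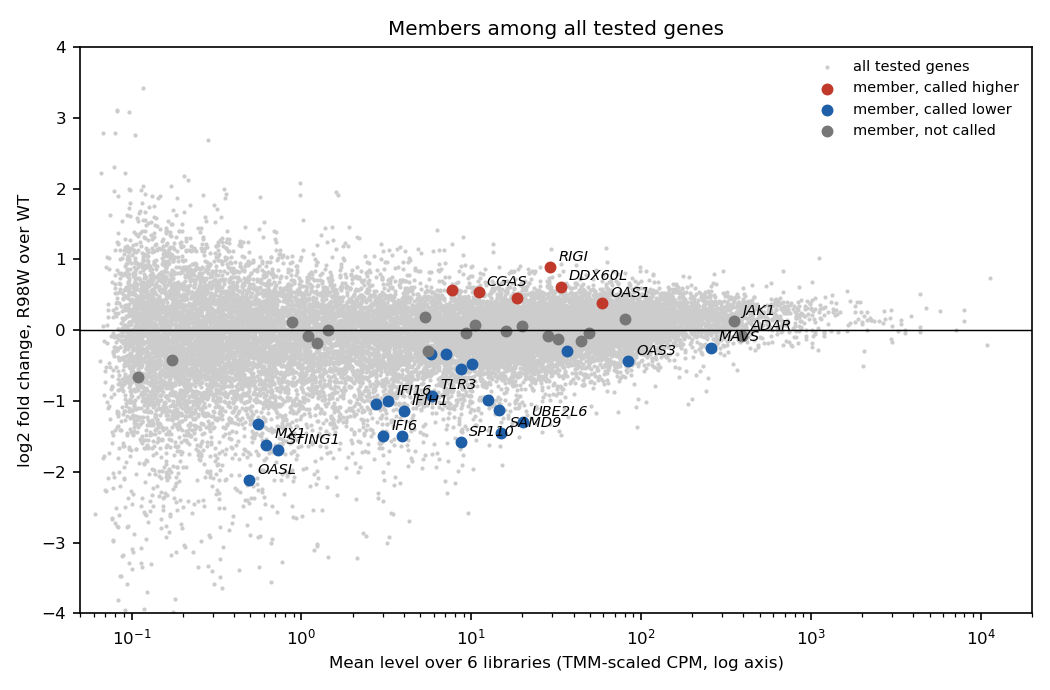
Log2 fold change of R98W over WT against the mean level over 6 libraries (CPM, log axis) for all 20713 tested genes (light grey) and the 47 tested interferon genes (red called higher, blue called lower, dark grey not called). The vertical axis ends at -4 and 4, beyond which a few genes are not drawn. Rises lie at or above 7 CPM, among them RIGI and OAS1, and falls run from under 1 CPM up to MAVS.

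Of the 9 interferon genes listed, only IFNE had enough counts to be tested. IFNB1, IFNA2, IFNK, IFNL2 and IFNL3 had 0 counts in every library, and a count of 0 allows up to 0.0261 to 0.0316 CPM by library, for counting error only. IFNA1 had 3 to 8 counts in WT and 8 to 14 in R98W and was not tested. IFNE, an interferon of epithelia, stood at 80 to 104 counts in WT and 84 to 170 in R98W (log2 fold change 0.42, SE 0.25, edgeR adjusted p = 0.204), and it overlaps MIR31HG on the same strand.

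A further list of 86 pathway genes was counted the same way, of which 60 were tested. It gave 12 higher and 19 lower genes, or 20.0% and 31.7% of those tested, beside 16.2% and 18.5% of all tested genes, with a median log2 fold change of -0.09. Its effectors had 6 higher and 14 lower of 34, and its signalling genes 5 higher and 4 lower of 20. By p, SAMHD1, PARP9 and IRF5 led the falls. SAMHD1, a nuclease that depletes deoxynucleotides, stood at 29.8, 32.9 and 31.8 CPM in WT and 14.9, 14.1 and 11.2 CPM in R98W (log2 fold change -1.24, SE 0.10, edgeR adjusted p = 2.28e-08). The transcription factor IRF5 stood at 9.93, 8.43 and 10.5 CPM in WT and 4.46, 5.28 and 4.59 CPM in R98W (log2 fold change -1.01, SE 0.12, edgeR adjusted p = 3.19e-06). PARP9 had log2 fold change -0.85 (SE 0.09, edgeR adjusted p = 4.52e-07) and overlaps DTX3L on the other strand. PLSCR1, TANK and NMI led the rises. PLSCR1, a scramblase with antiviral activity, stood at 53.8, 44.4 and 49.6 CPM in WT and 70.8, 72.1 and 69.0 CPM in R98W (log2 fold change 0.52, SE 0.07, edgeR adjusted p = 2.14e-05). TANK, a scaffold of the kinase TBK1, had log2 fold change 0.43 (SE 0.07, edgeR adjusted p = 6.27e-05), and NMI, the partner of IFI35, had 0.42 (SE 0.09, edgeR adjusted p = 0.00101).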

How the data were processed

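RNA-seq of polyadenylated RNA was analysed from raw read counts per gene, which the authors deposited as whole numbers with no normalisation. Build hg38 and the tools HTSeq 0.11.3, HISAT2 2.1.0 and CASAVA 1.8 stand in the submitters' processing notes with no roles given. For annotation, strand setting and read filters the entry is: not given in the sources used here. Hence reads of overlapping genes on opposite strands cannot be told apart. Symbols, positions and exon lengths (all annotated exons merged) came from GENCODE 29.

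The test was edgeR 4.0.16 (R 4.3.3) on the counts: filterByExpr (minimum count 10, total 15), TMM scaling, quasi-likelihood test over 6 libraries without covariates, Benjamini-Hochberg adjustment and a threshold of 0.05. Each SE was taken from the test statistic. CPM used TMM-scaled totals. Alternatives were other scalings (DESeq2 size factors, upper quartile), filters and tests (limma-voom 3.58.1, DESeq2 1.42.0), a replicate block, each library left out, loess corrections for expression level and GC content, a stricter threshold (0.01) and edgeR's glmTreat at a 1.2-fold bound.

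Named genes followed a rule: all called sensors, up to 4 signalling and 8 effector genes by p with every library, other called members by fold change, the most abundant uncalled ones, and 3 rises and 3 falls of the further list. Other family members were added for completeness. Some genes of the further list are counted but not reported singly here. The members, lists, motif and alternatives were chosen with earlier results of these data known. On simulated counts for R98W against WT, 34% of genes changed 1.25-fold, 54% at 1.5-fold, 68% at 2-fold and 96% at 4-fold were recovered, with 9 false calls among 20224 genes tested. Only 50 genes were changed at each fold, far fewer than the 7203 called in the data. The adjustment is stricter with so few changed genes, so these shares are not the recovery of the test reported here.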

Additional observations from a re-analysis of the deposited data

How the results depend on the processing

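Over the 47 tested interferon genes and 17 alternatives, 773 of 797 values kept their side of the threshold, 19 lost a call, 5 gained one, and no called gene changed sign. The uncalled JAK1, IFNAR2, IRF3, IRF7, IRF9, USP18, IFIT1, ISG15 and PML changed sign in at least 1 alternative. Of the 28 called genes, 21 were called in every alternative. The exceptions were MAVS, TYK2, IFIT3, IFI35, OAS1, DDX60 and HERC5, of which TYK2, IFI35, OAS1 and HERC5 were lost only in the test against a fold of 1.2, at edgeR adjusted p of 0.461, 0.0566, 0.0652 and 0.0820. With a library left out, members lower ran from 19 to 22 and members higher from 6 to 7, other pathway genes lower from 17 to 22 and other pathway genes higher from 8 to 12, and all tested genes lower from 3060 to 3944 and all tested genes higher from 2340 to 3268. The counts of 2340, 3060 and 8 were those without WT replicate 3. At a threshold of 0.01, all tested genes higher numbered 2143 and other pathway genes higher 7. Against a fold of 1.2, all tested genes higher numbered 884, all tested genes lower 1982 and other pathway genes higher 3.

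Same-numbered WT and R98W libraries did not deviate together, with correlations of their deviations from -0.0392 to 0.00564, and not every library correlated best with its own number. With the replicate number as a block, members lower stayed at 22 and members higher at 6, other pathway genes were 20 and 12, and all tested genes lower and higher 3678 and 3205. KAT8 itself passed only with the block (edgeR adjusted p = 0.000788) and without the filter (6.72e-16). Its log2 fold change ran from 0.06 to 1.37 over the 17 alternatives. WT replicate 1 stood at 12.2 CPM for KAT8 and the other libraries at 166 to 236 CPM, so these calls do not show a difference between the groups. Depth limits the genes near or under 1 CPM, such as OAS2 (SE 0.71) and IFI27 (SE 0.53).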
